A study of Homo sapiens with 8 samples.

Results

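The zinc finger band 19p13.2 was described as chr19:6900001-13900000 on hg19, cut by position alone into 700 tiles of 10 kb out of 309579 such tiles in the genome. The mark studied was H3K9me3, a histone modification of constitutive heterochromatin, and the assay was ChIP-seq. PC9, the cell line used, is of human lung adenocarcinoma and depends on mutant EGFR. DTP + TSA were drug-tolerant persisters, the cells that survived 1 µM erlotinib (an EGFR kinase inhibitor) for 8 days, with 50 nM trichostatin A (TSA, an inhibitor of histone deacetylases) for 5 hours on day 8. DTP were such persisters without TSA, still in erlotinib, and parental cells had no treatment. There was 1 library and 1 list of enriched intervals for each state, so no difference between states has a replicate check or a p-value. Depth is unknown, since the lists carry no read totals. They held 53000 intervals genome-wide in DTP + TSA, 47866 in DTP and 23842 in parental cells. In bulk libraries, a mark in fewer cells and less of the mark per cell cannot be told apart.

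KRAB zinc finger genes encode repressors that bind DNA, many of them at transposable elements, and recruit TRIM28 and the H3K9 methyltransferase SETDB1. The genes lie in tandem clusters, and in many human cell types the clusters themselves carry broad H3K9me3, often over the exons that encode the zinc finger arrays. Gene-dense euchromatin between such clusters normally carries little of the mark.

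By gene names, the band holds both zinc finger clusters and stretches of other genes. The RefSeq table used here is on GRCh38, so genes were not placed on the tiles and are given by name and order only. For the GRCh38 bands 19p13.2 and 19p13.13, which share a border that lies elsewhere in hg19, the table has 197 protein-coding genes, 40 of them with a ZNF name. In order from the telomere, 34 of these form 2 long runs. The first has 10 ZNF genes from ZNF699 to ZNF846, between OR7D4, an olfactory receptor gene, and FBXL12, which encodes an F-box protein. The second has 24 from ZNF627 to ZNF791, between ACP5, which encodes an acid phosphatase, and MAN2B1, which encodes a lysosomal mannosidase. The other 6 stand singly: ZNF557, ZNF358, ZNF414, ZNF558 and ZNF317 before the first run, and ZNF653 between the runs. The 62 protein-coding genes between the runs include DNMT1, which encodes the maintenance DNA methyltransferase, KEAP1, which encodes the sensor of oxidative stress that restrains NRF2, and SMARCA4, which encodes a remodelling ATPase.

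With the split used here, the densely covered blocks had nearly the same covered length in all 3 states. The tiles outside them then carried the whole net difference. A tile was called strong where the share of it inside intervals, averaged over the 3 libraries, was at least 50%. Strong tiles with at most 2 other tiles between them were joined, and a block needed at least 5 strong tiles. This gave 3 blocks of 151 tiles (1.51 Mb) and left 549 tiles (5.49 Mb). The split uses the measured coverage of all 3 libraries with equal weight, so the height of the blocks is a description. A tile covered in 1 library alone averages at most 33.3% and cannot be strong. It falls in the rest unless joined between strong tiles, so the length each part carries depends on the rule. With strong tiles set by DTP + TSA alone, blocks were 3.34 points higher in DTP + TSA than in DTP. With a threshold of 30%, they were 2 points higher in DTP than in parental cells. Of 21 distinct values over all alternatives, 18 were below 0 in the first pair and 14 in the second. Just inside the threshold of 50% used here, the tile chr19:7730001-7740000 averaged 50%, and just outside it chr19:8160001-8170000 averaged 49.3%. Blocks were covered over 76.7% of their length in DTP + TSA, 77.7% in DTP and 78.2% in parental cells. The rest was covered over 17.3% in DTP + TSA, 9.77% in DTP and 5.77% in parental cells. The rest of DTP + TSA thus had 1.77 times the covered length of DTP, the rest of DTP had 1.69 times that of parental cells, and the rest of DTP + TSA had 3.01 times that of parental cells.

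**Figure D1:**
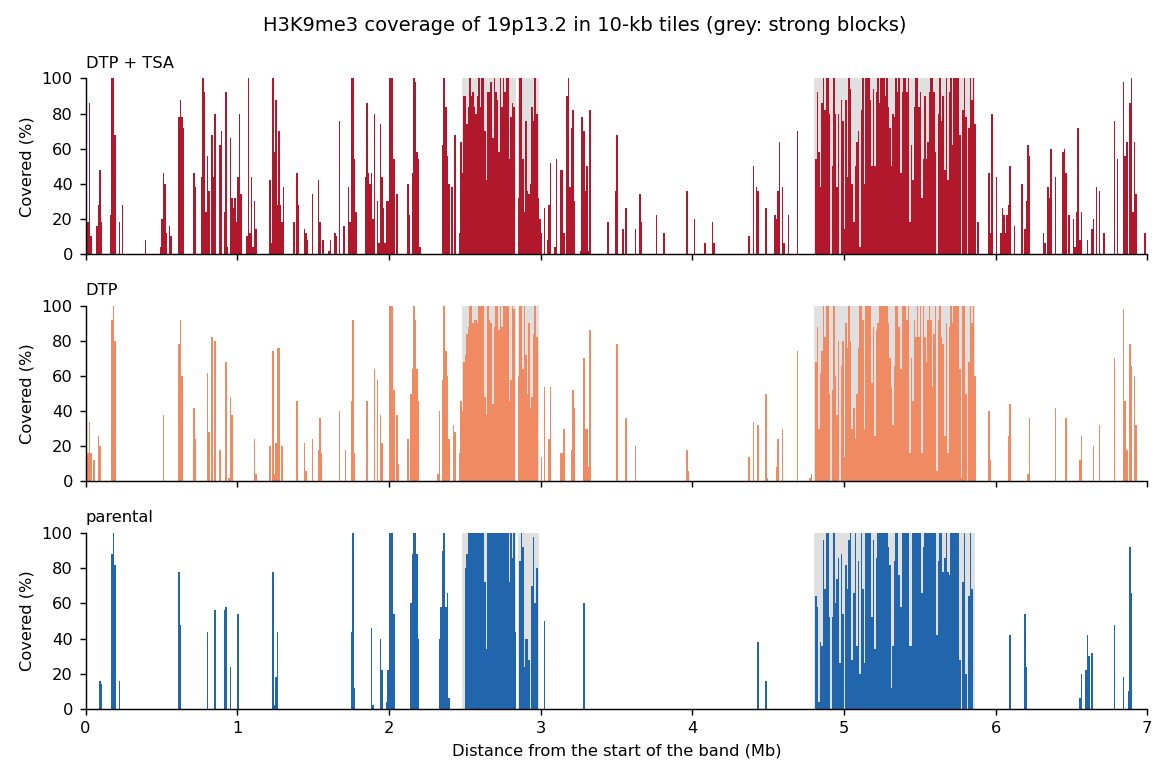
Covered share (%) of each of the 700 tiles of 10 kb in DTP + TSA, DTP and parental cells, by distance from the start of the band in Mb; grey marks the 3 blocks. The blocks are filled in all 3 libraries, and the tiles outside them fill most in DTP + TSA, at 17.3% against 9.77% in DTP and 5.77% in parental cells.

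In kilobases, the band had 2109.6 kb inside intervals in DTP + TSA, 1710.4 kb in DTP and 1497.8 kb in parental cells. Between DTP and parental cells the net difference was 212.6 kb, made up of 220.0 kb in the rest and -7.4 kb in the blocks. Between DTP + TSA and DTP it was 399.2 kb, made up of 415.0 kb in the rest and -15.8 kb in the blocks. With this split the rest carried 103% of the net difference of DTP over parental cells, and 104% for DTP + TSA over DTP. The level totals of the blocks hid differences in position. In the blocks, DTP had 128.0 kb that parental cells lacked and lacked 135.4 kb that they had, and DTP + TSA had 94.4 kb that DTP lacked and lacked 110.2 kb that DTP had. The 2 directions thus almost cancelled in the blocks. In the rest they did not, with 300.2 kb in DTP and not in parental cells against 80.2 kb the other way, and 493.6 kb in DTP + TSA and not in DTP against 78.6 kb the other way.

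**Figure D2:**
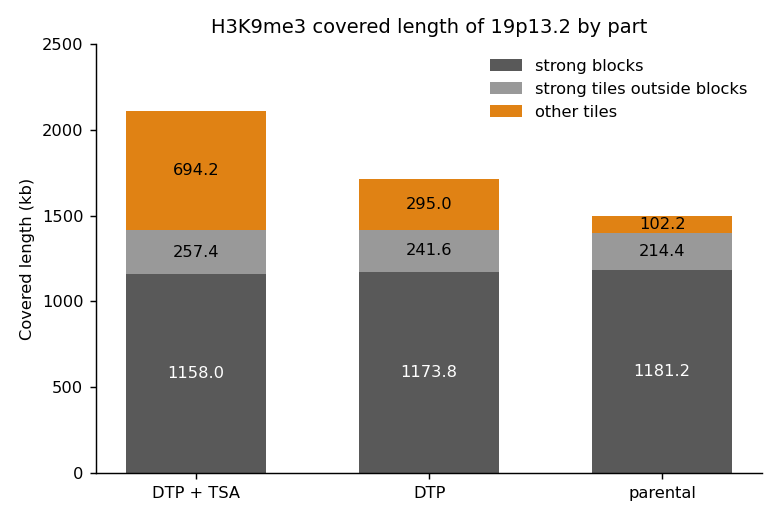
Covered length (kb, bars from 0) of the band in DTP + TSA, DTP and parental cells, split into the blocks, the strong tiles outside blocks and the other tiles. The blocks stand at 1158.0, 1173.8 and 1181.2 kb in that order, and the other tiles at 694.2, 295.0 and 102.2 kb.

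Block 1 lay at chr19:9390001-9730000 and was the most fully marked. It was covered over 86.3% in DTP + TSA, 86.8% in DTP and 92.1% in parental cells. The parental list crossed it with 5 intervals, of which the longest, at chr19:9546601-9695400, reached 148.8 kb and the next, at chr19:9419801-9537200, reached 117.4 kb. DTP + TSA had 24 intervals there, with a longest of 32.8 kb, and DTP had 17, with a longest of 46.6 kb at chr19:9488201-9534800 and a next of 44.8 kb at chr19:9649801-9694600. A single stretch of at least 5 kb, chr19:9537201-9545800, was outside intervals in all 3 libraries and parted the block near its middle.

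Block 2, at chr19:9760001-9880000, was the smallest and the one whose coverage differed most between states. It was covered over 67.0% in DTP + TSA, 77.7% in DTP and 59.7% in parental cells. DTP was therefore 18.0 points above parental cells, and DTP + TSA was 10.7 points below DTP. With 12 tiles this was 21.6 kb and -12.8 kb. The block had 10 intervals in DTP + TSA, 8 in DTP and 7 in parental cells, and its last border lay within 0.2 kb in all 3, at 9878000 in DTP + TSA, 9878200 in DTP and 9878000 in parental cells.

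Block 3, at chr19:11710001-12760000, held 105 of the 151 block tiles and was covered over 74.7% in DTP + TSA, 74.8% in DTP and 75.8% in parental cells. Of its length, 647.2 kb (61.6%) was inside intervals in all 3 libraries and 132.2 kb (12.6%) in none. It contained 8 stretches of at least 5 kb that were outside intervals in all 3 libraries, 77.6 kb in sum, of which the longest was chr19:11808001-11824800 (16.8 kb). The longest interval of DTP, chr19:12129601-12198200 (68.6 kb), lay here, as did the longest of DTP + TSA, chr19:12619801-12662200 (42.4 kb), its next, chr19:12038001-12078800 (40.8 kb), and the third longest of parental cells, chr19:12420801-12510800 (90.0 kb).

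Blocks were divided into more intervals in both persister libraries, almost wholly by short gaps. They held 107 intervals in DTP + TSA with a median length of 7.0 kb, 84 in DTP with a median of 9.6 kb, and 49 in parental cells with a median of 14 kb. Gaps of up to 5 kb inside blocks numbered 81 in DTP + TSA, 60 in DTP and 24 in parental cells. Gaps over 5 kb numbered 23, 21 and 22 in the same order. In block 3 there were 18 longer gaps in each library, while shorter ones numbered 54 in DTP + TSA, 40 in DTP and 18 in parental cells. With gaps of up to 5 kb closed, block 3 had 19 domains in every library. Equal numbers did not mean equal borders, since only 15 of the 38 domain borders of DTP + TSA had a DTP border within 1 kb, and 10 of the 38 of DTP had a parental one. Block length that parental cells had and DTP lacked came in 69 stretches with a median of 1 kb, the longest of them chr19:11964201-11977600 (13.4 kb). Block length that DTP had and DTP + TSA lacked came in 92 stretches with a median of 0.8 kb, the longest of them chr19:12000401-12010800 (10.4 kb).

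**Figure D3:**
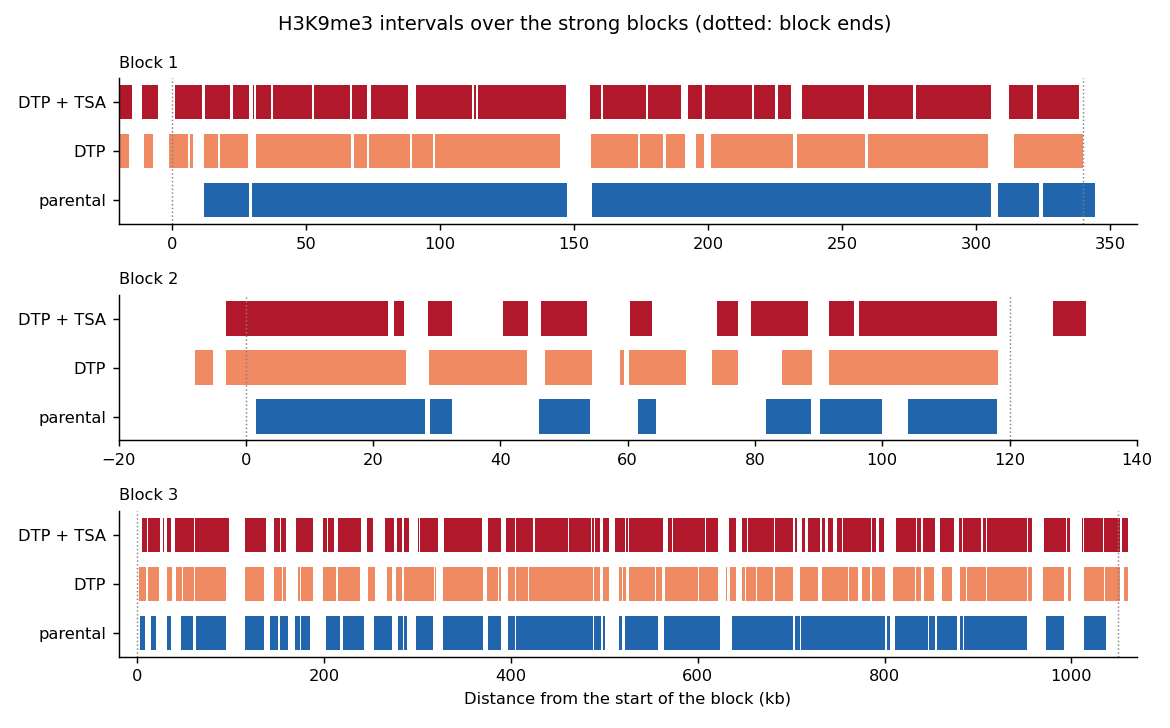
Intervals of DTP + TSA, DTP and parental cells over the 3 blocks, by distance from the start of each block in kb; dotted lines mark the block ends. Parental bars are long, and the DTP + TSA and DTP bars fill about the same length with more short gaps, 81 and 60 of up to 5 kb against 24 in parental cells.

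The outer borders of the blocks were close between the persister libraries and less so between them and parental cells. The 6 outer borders of DTP + TSA lay 0 to 2.4 kb from those of DTP. Between DTP and parental cells they differed by 0.2 kb at the end of block 2 and at the start of block 3, by 4.6 kb and 4.8 kb at the end of block 1 and the start of block 2, and by more at the other 2. Block 1 began at 9388801 in DTP against 9402001 in parental cells, nearer the telomere. Block 3 ended at 12761800 in DTP against 12746800 in parental cells, 15.0 kb nearer the centromere.

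Outside the blocks, more tiles carried the mark in the persister libraries. Of the 549 tiles, 233 had some coverage in DTP + TSA, 129 in DTP and 64 in parental cells. Tiles covered in DTP and not at all in parental cells numbered 82 (14.9%, with 11.2% of tiles outside blocks in the genome and 12.4% on chromosome 19 outside the band), and 17 were covered only in parental cells (3.10%, with 3.57% and 3.65%). Tiles covered in DTP + TSA and not in DTP numbered 117 (21.3%, with 5.95% and 18.2%), and 13 were covered the other way (2.37%, with 4.59% and 2.76%). These shares lay near those of the rest of chromosome 19. Most of the gained length lay in intervals that touched no interval of the other library. They made up 262.6 of 300.2 kb (87.5%) for DTP over parental cells and 359.8 of 493.6 kb (72.9%) for DTP + TSA over DTP. In the blocks new intervals made up 16.9% and 10.2% of the length gained in these comparisons, and the remainder lay beside or between kept intervals. Blocks were chosen for dense coverage in these same libraries, so a gained stretch there has little room to stand apart. The contrast with the rest thus follows largely from the split.

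A difference of at least 20 points of covered share was met by 81 of the 700 tiles upward (11.6%, with 6.66% in the whole genome and 8.25% on chromosome 19 outside the band) and by 35 downward (5.00%, with 3.72% and 9.86%) when DTP was set against parental cells. With TSA set against DTP, 109 tiles were higher (15.6%, with 3.51% and 13.9%) and 19 lower (2.71%, with 2.76% and 4.18%). For DTP + TSA over parental cells, 156 were higher (22.3%, with 7.29% and 17.3%) and 35 lower (5.00%, with 3.83% and 10.0%). Higher tiles were thus above the genome's share in each pair and, with TSA over DTP, near that of the rest of chromosome 19. By part, blocks had 20 tiles higher and 20 lower in DTP over parental cells and 16 higher and 11 lower in DTP + TSA over DTP. The rest had 61 higher (11.1%) and 15 lower (2.73%) and then 93 higher (16.9%) and 8 lower (1.46%). The shares above are for all tiles, blocks included, so they are no background for these counts. No matching share for tiles inside or outside blocks elsewhere is given here. Whether the counts by part are unusual therefore cannot be said. In covered length, the rest of DTP + TSA had 1.82 times that of DTP on chromosome 19 outside the band, against 1.77 times here. For DTP over parental cells it was 1.23 times there (1.54 without the band 19p12), against 1.69 times here. Over the whole genome the 2 ratios were 1.09 and 1.37.

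The higher coverage of the rest was found along the whole band but was uneven in size. Of the 13 windows of 500 kb with tiles outside blocks, all 13 had a higher share in DTP + TSA than in DTP, and all 13 a higher share in DTP than in parental cells. Net lengths of DTP + TSA over DTP ran from 1.8 kb to 75.4 kb. The window chr19:9400001-9900000 held only 5 such tiles, with 2.4 kb in that comparison and 1.6 kb in DTP over parental cells. The window chr19:7400001-7900000 was covered over 30.3% in DTP + TSA, 15.2% in DTP and 7.28% in parental cells, and it had the largest net length of the TSA comparison at 75.4 kb. The window chr19:9900001-10400000 was covered over 21.6% in DTP + TSA, 10.9% in DTP and 2.20% in parental cells, and it had the largest net length of DTP over parental cells at 43.4 kb. At chr19:12900001-13400000 the values were 16.2%, 3.76% and 2.40%, and most of the difference lay between DTP + TSA and DTP. The 2 windows of chr19:10400001-11400000, between blocks 2 and 3, had the least in DTP + TSA, at 4.88% and 4.20%, against 3.16% and 2.64% in DTP and 0% and 1.08% in parental cells. In the window chr19:8900001-9400000, which holds 3 of the 4 strong islands described next, values were 28.2%, 27.8% and 25.5%, a narrow range like that of the blocks. That range was narrow in net only. Single tiles there went down, such as chr19:9240001-9250000 (0%, 0% and 58%), and up, such as chr19:9370001-9380000 (64%, 46% and 0%). Named windows were picked after their values had been seen. By distance, the 43 tiles within 100 kb of a block were covered over 14.3% in DTP + TSA, 11.6% in DTP and 2.33% in parental cells. The 346 tiles over 500 kb from a block were covered over 16.7%, 8.39% and 4.53% in the same order. The 160 tiles at 100 to 500 kb were covered over 19.4%, 12.3% and 9.36%. Tiles near blocks thus differed more between DTP and parental cells (9.26 points) than between DTP + TSA and DTP (2.74 points). Middle tiles (2.91 and 7.16 points) and far tiles (3.86 and 8.34 points) went the other way. The near class is small, and the blocks that bound it were drawn from the same coverage, so distance is not independent of the values.

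**Figure D4:**
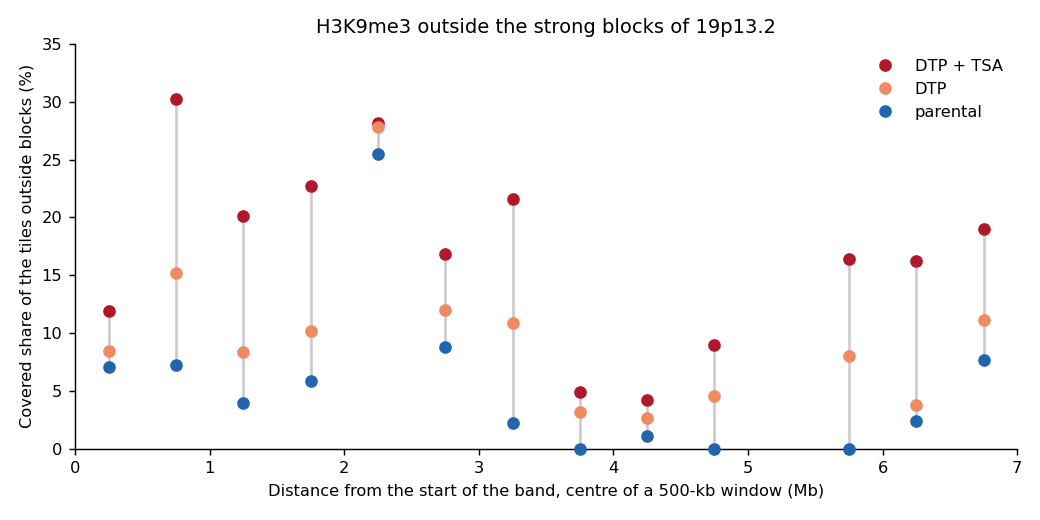
Covered share (%) of the tiles outside blocks in each of 13 windows of 500 kb, by distance of the window centre from the start of the band in Mb; points are DTP + TSA, DTP and parental cells, and a grey line joins the lowest and highest. In each window DTP + TSA is highest and parental is lowest, with the smallest spread in the fifth window (28.2%, 27.8% and 25.5%).

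Strong tiles too few to form a block made up 17 islands with 31 tiles. Like each block as a whole, the 4 islands of 3 or 4 tiles each had averages within 20 points across the libraries. They lay at chr19:7070001-7100000 (89.3% in DTP + TSA, 90.7% in DTP, 90.0% in parental cells), chr19:8900001-8940000 (88.5%, 88.0% and 88.5% in the same order, with the third longest DTP + TSA interval of the band, chr19:8897601-8935400, at 37.8 kb), chr19:9050001-9090000 (75.5%, 80% and 94.0%) and chr19:9250001-9290000 (75.5%, 73.0% and 78.5%). Of the 13 islands of 1 or 2 tiles only 2 lay within 20 points. Averages over more tiles vary less, so this count does not set small islands apart from large ones. Single block tiles differed too, with 20 of 151 higher and 20 lower by at least 20 points in DTP over parental cells. Without all 31 island tiles, the rest was covered over 13.4% in DTP + TSA, 5.69% in DTP and 1.97% in parental cells. DTP + TSA then had 2.35 times the DTP length and DTP 2.89 times the parental length. These ratios are higher than with the islands by construction, since the tiles taken out were chosen for their coverage and held 214.4 of the 316.6 kb of the parental rest. These 518 other tiles carried 90.7% of the band's net difference of DTP over parental cells and 100% of that of DTP + TSA over DTP.

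Single tiles outside the blocks differed by up to their full length. For DTP over parental cells the largest gains were at chr19:10220001-10230000 (82% in DTP + TSA, 86% in DTP, 0% in parental cells), chr19:7730001-7740000 (68%, 82% and 0%) and chr19:13740001-13750000 (98%, 98% and 18%). All 3 are islands of 1 tile, and each was covered over at least 68% in DTP + TSA. In the first tile an interval of 9.4 kb in DTP, chr19:10219201-10228600, stood where parental cells had none. The largest losses were at chr19:9240001-9250000 (0%, 0% and 58%), chr19:7810001-7820000 (24%, 0% and 56%) and chr19:7900001-7910000 (44%, 0% and 54%). The tile chr19:13090001-13100000 (14%, 0% and 54%) tied with the last of these in DTP over parental cells and ranked after it by its lower mean over the libraries. At chr19:7900001-7910000 a parental interval with 4.61 times the median mean value of its list had no counterpart in DTP, and one was called in DTP + TSA at chr19:7903801-7908200, within the parental borders chr19:7903201-7908600.

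For DTP + TSA over DTP, 3 tiles had full coverage in DTP + TSA and 0% in both DTP and parental cells, namely chr19:7670001-7680000, chr19:7970001-7980000 and chr19:10080001-10090000. Each lay in 1 interval, of 14.6 kb at chr19:7668601-7683200, 12.2 kb at chr19:7969001-7981200 and 19.6 kb at chr19:10074201-10093800. Their mean values were 0.95, 0.62 and 1.18 times the median of the DTP + TSA list, so 1 of the 3 was above that median. The largest losses were at chr19:9040001-9050000 (0% in DTP + TSA, 50% in DTP, 60% in parental cells), chr19:8160001-8170000 (28%, 76% and 44%) and chr19:9230001-9240000 (0%, 40% and 40%).

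Intervals outside the blocks were shorter than those inside them in each library, with medians of 3.6 kb (n = 195) in DTP + TSA, 3.8 kb (n = 101) in DTP and 5.6 kb (n = 39) in parental cells. Of the 39 parental ones, 34 or 87.2% (exact Clopper-Pearson 95% interval 72.6 to 95.7) overlapped DTP + TSA and 27 or 69.2% (52.4 to 83.0) overlapped DTP. Of the 101 DTP ones, 90 or 89.1% (81.3 to 94.4) overlapped DTP + TSA. Of the 195 DTP + TSA ones, 86 or 44.1% (37.0 to 51.4) overlapped DTP, and of the 101 DTP ones 29 or 28.7% (20.1 to 38.6) overlapped parental cells. These intervals cover counting error only. Outside blocks over the whole genome the same shares were 60.8% of parental intervals overlapping DTP + TSA, 62.6% of parental ones overlapping DTP, 70.7% of DTP ones overlapping DTP + TSA, 65.2% of DTP + TSA ones overlapping DTP and 32.1% of DTP ones overlapping parental cells. On chromosome 19 outside the band they were 75.5%, 71.4%, 82.7%, 44.8% and 38.3% in the same order. The 28.7% of DTP intervals with a parental counterpart was thus below the 32.1% of the genome and the 38.3% of chromosome 19. Its interval of 20.1 to 38.6 takes in both, so it cannot be told apart from either. The share of DTP + TSA intervals with a DTP counterpart was below that of the genome and near the 44.8% of chromosome 19 outside the band.

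**Figure D5:**
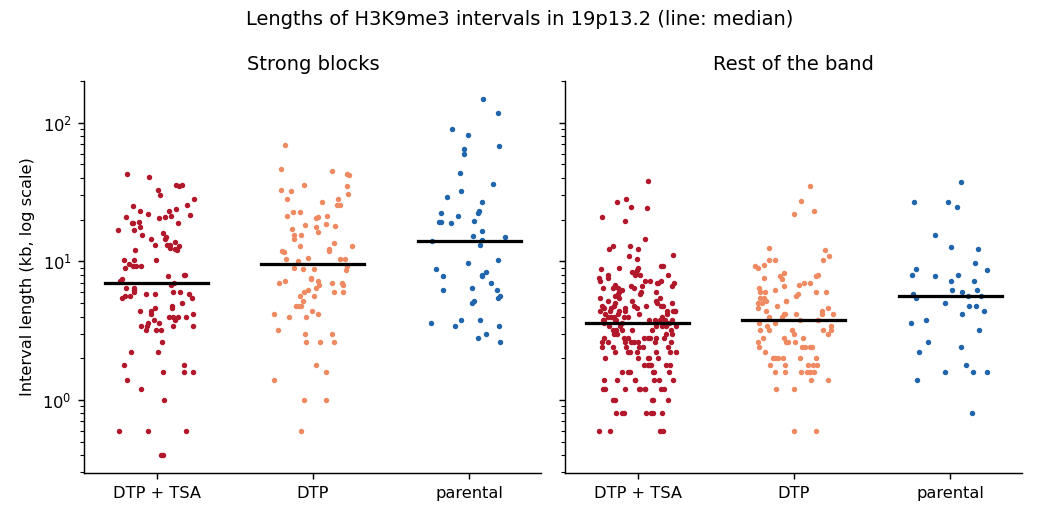
Length in kb (log axis) of each interval in the blocks and in the rest of the band for DTP + TSA, DTP and parental cells; points are intervals and black lines medians. Block medians are 7.0, 9.6 and 14 kb in that order, and medians of the rest are 3.6, 3.8 and 5.6 kb.

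The authors' mean value of an interval was read only against the median of its own list, since the scaling between libraries is not given. In the blocks the median interval stood at 1.19 times the list median in DTP + TSA, 1.15 times in DTP and 1.40 times in parental cells. In the rest it stood at 1.10 times in DTP + TSA, 0.96 times in DTP and 1.35 times in parental cells. Weighted by length, mean values in the blocks were 1.654 (DTP + TSA), 1.452 (DTP) and 1.604 (parental) times the list median. In the rest they were 1.351, 1.252 and 1.988 times in the same order, so the parental rest stood above the parental blocks. Over the whole genome they were 1.764, 1.798 and 1.753 times, above the blocks in each library. The blocks were thus densely covered, and not in every case higher in mean value. DTP intervals of the rest that overlapped parental cells had a median of 1.26 times, and those that did not had 0.90 times. DTP + TSA intervals of the rest that overlapped DTP had 1.18 times, and those that did not had 1.03 times. Of the DTP intervals in the rest 44 of 101 were above the median of their list, against 34 of 39 parental ones, and for DTP + TSA it was 115 of 195. In the blocks it was 50 of 84 in DTP, 38 of 49 in parental cells and 71 of 107 in DTP + TSA.

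The sign of the difference between DTP and parental cells in the rest depended on how intervals were ranked when only the strongest were used. With the block tiles kept and each list held to its 23842 strongest intervals by mean value, the length of the parental list, the rest was covered over 10.3% in DTP + TSA, 5.30% in DTP and 5.77% in parental cells. The difference of DTP over parental cells was then -0.46 points, and that of DTP + TSA over DTP was 4.97 points. With the same number taken by summit value, the rest stood at 12.5%, 7.53% and 5.77% in the same order, and DTP stayed 1.77 points above parental cells. The blocks, which had stood level, were at 58.0%, 61.3% and 78.2% by mean value and at 69.7%, 71.0% and 78.2% by summit value. The parental list is whole in these settings and the other 2 lose their weaker intervals. Keeping the block tiles was a setting added after the data had been seen. The planned settings redraw the blocks from the shortened lists. There DTP over parental cells in the rest was -3.18 points by mean value and 1.76 points by summit value. DTP + TSA over DTP was 4.53 and 4.71 points.

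Blocks drawn by the same rule elsewhere on chromosome 19 were less level, and in both directions. Outside 19p13.2 they were covered over 73.8% in DTP + TSA, 74.8% in DTP and 89.9% in parental cells (937 tiles), a difference of -15.1 points in DTP over parental cells, where the blocks of 19p13.2 had -0.49 points. Much of this lay in 19p12, whose blocks were at 64.3%, 65.4% and 95.8%. Without 19p12 the other blocks of the chromosome were at 79.5%, 80.4% and 86.4%, a difference of -5.94 points. In 19p13.3, the neighbouring band toward the telomere, the 23 block tiles were at 78.0%, 66.3% and 47.7%, with DTP + TSA 11.7 points above DTP and DTP 18.6 points above parental cells. Over the whole genome, blocks drawn this way were at 74.4%, 71.8% and 71.9% (2736 tiles), level in net between DTP and parental cells. That net takes in the 937 tiles of chromosome 19 at -15.1 points. Block tiles of the other chromosomes together therefore went the other way, so level blocks were not the rule. Outside blocks, 19p13.3 was covered over 14.4%, 6.38% and 2.69%, each value lower than the 17.3%, 9.77% and 5.77% of 19p13.2. Its ratios were larger, at 2.26 for DTP + TSA over DTP and 2.37 for DTP over parental cells, where 19p13.2 had 1.77 and 1.69. In 19p12 the tiles outside blocks went the other way against parental cells, at 17.3%, 16.6% and 68.0%. The rest of the other chromosome 19 bands without 19p12 was at 13%, 7.02% and 4.57%. With 1 library per state none of these differences between regions could be tested.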

How the data were processed

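H3K9me3 ChIP-seq of PC9 cells was analysed from the 3 deposited interval lists, 1 for each of DTP + TSA, DTP and parental cells. The 5 other samples of the series (H3K4me3 and input) were not analysed here. Per the submitters' processing notes the tools included BWA and SICER, and hg19 and dm3 were among the builds; neither versions nor roles are named. No input, threshold or scaling is given in the sources used here. Each interval has the authors' signal as a summit value and a mean value, per the file headers. Both were used inside a list alone, for description, ranking and filtering.

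Intervals start on a grid of 200 bp, and covered share was computed on that grid. Positions are 1-based on hg19. Domains are intervals joined over gaps of up to 5 kb. An interval was assigned to blocks or rest by its midpoint and was shared when it overlapped at all. Regions were named by rule: all blocks, the 3 tiles outside blocks with the largest gain and with the largest loss in DTP over parental cells and in DTP + TSA over DTP, and the 3 longest intervals per library. Windows and islands were described after their values had been seen. The band, its split, the lists and the comparisons were chosen with earlier results of these data known.

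Alternatives changed tile size, grid, threshold, joining, the library that defines strong tiles, the intervals used and the blocks included. Band borders were read from circlize 0.4.16 (R 4.3.3), with GenomeInfoDb 1.38.1 for chromosome lengths. Coverage was computed in Python 3.11.15 with pandas 2.3.3 and numpy 2.4.6, exact intervals with scipy 1.17.1, and plots with matplotlib 3.10.9. On simulated lists with known answers, 7 of 7 checks returned them. Gene names and order came from RefSeq. No GC check was made, since no hg19 sequence was used here.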

Additional observations from a re-analysis of the deposited data

How the results depend on the processing

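Values are differences in covered share, in points, over 22 alternatives, 4 of them added after seeing the data. Many could not change a given value: 9 left the band and 3 left the rest as they were, and others repeated a value. Among the 19 other values for the rest, DTP + TSA minus DTP was above 0 in 19 (4.53 to 8.89) and DTP minus parental in 15. Among the 10 for the band, DTP + TSA minus DTP was above 0 in 10 (3.17 to 6.86) and DTP minus parental in 7. Among the 21 for the blocks, DTP + TSA minus DTP was below 0 in 18 and DTP minus parental in 14, so neither sign was firm. Values below 0 for DTP minus parental in the band or rest came with the strongest intervals alone. With equal numbers by mean value, the band was at -0.84 for DTP + TSA minus parental and -4.01 for DTP minus parental, the rest at 1.35 and -3.18 for these pairs, and the blocks at -13.5 for DTP + TSA minus parental. With the block tiles kept, the band was the same, the rest was at 4.51 and -0.46, and the blocks were at -20.3 and -16.9. With the upper part of each list by mean value, the band was at 1.84 and -2.44, the rest at 4.13 and -1.38, and the blocks at -11.4 for DTP + TSA minus parental. With the block tiles kept, the rest was at 5.29 and -0.14, and the blocks at -10.8 for DTP minus parental. With equal numbers by summit value, DTP + TSA minus parental was 3.47 in the band and 6.47 in the rest, or 6.77 with the block tiles kept, and DTP minus parental was -0.17 in the band and 1.76 in the rest, or 1.77 with the block tiles kept. Equal numbers take intervals from the persister lists alone, since the parental list is the shortest, and the upper part takes as large a share from each; beyond this the cause was not tested. No paired analysis was possible because each state had 1 library. Without read totals, differences of depth, cell number or calling threshold between libraries cannot be told apart from differences in the mark.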
